A study of Rattus norvegicus with 12 samples.

Results

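Acetylation-resistant KAT6A was compared with wild-type KAT6A in primary rat neonatal ventricular cardiomyocytes, the beating heart muscle cells isolated from newborn rats. The comparison takes 6 of the 12 libraries of the series, selected by their sample labels: 3 from cells given an adenovirus with human KAT6A in which a lysine is replaced by arginine (K815R), and 3 from cells given an adenovirus with unaltered human KAT6A (WT). RNA was taken 2 days after the virus and selected for poly(A) tails. Another 3 libraries received a LacZ adenovirus, the control, and 3 are labelled K815Q, the acetylation-mimicking form; both share the estimate of library spread and are printed as reference levels. All 12 libraries come from cells given a virus, and both forms compared are human proteins made on top of the rat gene. The title and design text of the series pose the question of whether acetylation of KAT6A acts on growth and mitochondrial metabolism through the energy sensor AMPK, and K815R against WT is the comparison that removes the acetylatable lysine from the delivered protein. No label says that the libraries of a group came from separate cultures, so the p-values measure the spread between libraries, which may be technical.

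KAT6A, also called MOZ, is a lysine acetyltransferase of the MYST family. It works in a complex with a BRPF scaffold protein, an ING protein and MEAF6, acetylates histone tails, and is best known for keeping developmental genes such as the HOX clusters switched on. Arginine carries the charge of lysine but cannot be acetylated. AMPK is a kinase made of a catalytic alpha, a scaffolding beta and a nucleotide-binding gamma subunit, and it switches cells from fuel storage to fuel use when energy is short.

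The delivered gene was checked first. Kat6a stood at 90.8, 82.0 and 106 CPM (counts per 1000000 reads on genes, scaled by the TMM method) in WT libraries 1, 2 and 3 and at 102, 122 and 101 CPM in the K815R libraries, against 45.5, 45.2 and 53.6 CPM with LacZ. All 6 libraries of the comparison lay above all LacZ libraries, and the ranges of the 2 forms overlapped. Kat6a was 0.95 higher in WT and 1.17 higher in K815R than in LacZ on the log2 scale (adjusted p = 0.000328 and 0.000195, quasi-likelihood test of edgeR, p-values adjusted by Benjamini-Hochberg), and K815R against WT differed by 0.22 (95% interval -0.0082 to 0.45, adjusted p = 0.388). These counts cannot tell human from rat transcripts, nor one mutant from another. The libraries labelled K815Q had 43.4, 50.0 and 45.7 CPM, with no rise over LacZ, so they are called by their label throughout. The 6 libraries held 19102048 to 25451686 reads counted on genes, so that 3 reads, taken as the floor of detection, equalled 0.118 to 0.155 CPM.

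Few genes separated the forms, and most by less than 2-fold. Of 14063 genes tested, 309 were called at an adjusted p under 0.05, which is 2.2% of those tested. Of these, 185 were higher in K815R (1.32% of tested genes) and 124 were lower (0.882%). The median size of the change among called genes was 0.40 on the log2 scale, and the median log2 fold change over all tested genes was -0.0031. A change of at least 2-fold was found for 33 called genes (0.235%), 18 higher and 15 lower, and 31 of the 33 had a mean under 5 CPM. Of these 31, 14 passed the filter on low counts only through the 3 libraries of the form where they were high, 10 in K815R and 4 in WT. The 3 libraries of one form lay wholly above or below those of the other for 2667 genes, 19% of those tested, and for 308 of the 309 called. Separate libraries are therefore given for called genes as description and add no support to the call. Genes named by size of change were also chosen to have them. By the same test 348 genes were called in K815R against LacZ (2.47%) and 751 in WT against LacZ (5.34%). Throughout, a gene is said to rise, fall, or be called higher or lower only past this threshold, log2 fold changes are K815R minus WT, and the value after ± is a standard error. When any 1 of the 6 libraries was left out, the count fell by more than 1.5 times: 134, 124 and 127 genes were called without WT library 1, 2 or 3, and 144, 177 and 153 without K815R library 1, 2 or 3.

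**Figure D1:**
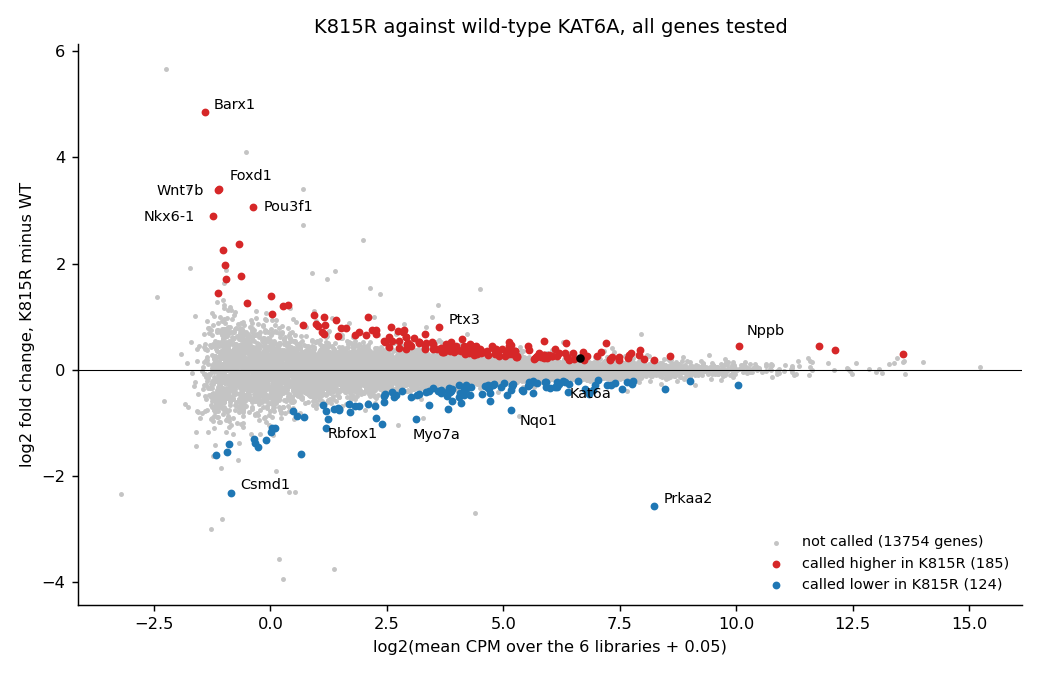
Log2 fold change of K815R minus WT against mean level for the 14063 genes tested, each point 1 gene; red points were called higher and blue points lower in K815R, grey points were not called, and Kat6a is drawn in black. The 2-fold changes sit mostly at the low-level left side, with Prkaa2 as the exception at lower right.

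The largest differences among genes at 5 CPM or more were as follows. Prkaa2, the alpha-2 catalytic subunit of AMPK, was lower in K815R by far more than any other (-2.57 ± 0.16). Rbfox1, a splicing regulator of muscle and neurons (-1.01 ± 0.18), Myo7a, an unconventional myosin (-0.93 ± 0.12), Nqo1, a quinone reductase (-0.76 ± 0.078), and Cilp, a matrix protein of cartilage and fibrotic heart (-0.74 ± 0.089), followed. The genes highest in K815R were Ptx3, a secreted pattern-recognition protein (0.80 ± 0.14), Epop, a partner of Polycomb repressor complex 2 (0.80 ± 0.11), Id4, an inhibitor of basic helix-loop-helix factors (0.74 ± 0.11), Nefh, the heavy neurofilament subunit (0.73 ± 0.12), and Cebpa, a transcription factor of metabolic differentiation (0.71 ± 0.11).

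Promoters of genes that led either direction are printed so that their sequence can be read beside the changes. Epop is missing because the RefSeq source used holds no promoter for it, and Nqo1 was added beyond the 3 lower genes planned. One entry was taken per gene symbol, so a gene with several starts may use another in these cells. Each run is the 250 bases before the transcript start in RefSeq's annotation of build GRCr8, 5′ to 3′ on the gene's strand, in lower case with every CG dinucleotide in capitals. Prkaa2 lies at chr5:125108325-125108574 (minus strand), Rbfox1 at chr10:8999392-8999641 (minus), Myo7a at chr1:161818578-161818827 (minus), Nqo1 at chr19:52220268-52220517 (minus), Ptx3 at chr2:152797313-152797562 (plus) and Id4 at chr17:16598294-16598543 (minus).
Prkaa2: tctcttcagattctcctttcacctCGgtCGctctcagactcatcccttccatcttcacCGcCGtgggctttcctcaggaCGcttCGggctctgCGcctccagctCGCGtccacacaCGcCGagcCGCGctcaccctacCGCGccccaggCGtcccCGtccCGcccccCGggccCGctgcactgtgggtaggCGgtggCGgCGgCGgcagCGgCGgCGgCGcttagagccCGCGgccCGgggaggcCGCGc
Rbfox1: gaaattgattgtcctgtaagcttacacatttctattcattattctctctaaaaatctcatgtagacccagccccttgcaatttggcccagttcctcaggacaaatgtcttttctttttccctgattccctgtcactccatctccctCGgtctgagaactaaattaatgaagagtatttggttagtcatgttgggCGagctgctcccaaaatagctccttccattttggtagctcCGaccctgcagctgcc
Myo7a: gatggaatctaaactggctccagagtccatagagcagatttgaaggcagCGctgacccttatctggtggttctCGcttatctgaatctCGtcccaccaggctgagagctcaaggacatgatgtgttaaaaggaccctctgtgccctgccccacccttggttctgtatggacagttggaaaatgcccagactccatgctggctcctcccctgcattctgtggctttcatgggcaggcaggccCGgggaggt
Nqo1: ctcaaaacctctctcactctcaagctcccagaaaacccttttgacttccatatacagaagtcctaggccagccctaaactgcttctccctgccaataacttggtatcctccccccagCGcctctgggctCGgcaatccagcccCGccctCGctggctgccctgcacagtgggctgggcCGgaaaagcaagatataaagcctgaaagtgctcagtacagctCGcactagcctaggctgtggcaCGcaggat
Ptx3: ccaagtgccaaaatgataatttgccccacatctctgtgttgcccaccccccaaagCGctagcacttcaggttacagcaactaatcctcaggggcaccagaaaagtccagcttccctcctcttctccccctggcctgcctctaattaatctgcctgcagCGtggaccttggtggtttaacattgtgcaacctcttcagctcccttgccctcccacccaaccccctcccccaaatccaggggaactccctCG
Id4: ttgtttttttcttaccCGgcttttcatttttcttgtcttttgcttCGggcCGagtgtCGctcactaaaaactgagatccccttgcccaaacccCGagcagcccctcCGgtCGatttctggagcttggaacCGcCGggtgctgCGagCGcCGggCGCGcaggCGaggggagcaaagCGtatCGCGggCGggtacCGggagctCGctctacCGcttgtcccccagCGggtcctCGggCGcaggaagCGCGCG
The 6 windows range from dense to sparse in CG. Prkaa2, which fell, had 33 CG dinucleotides and Id4, which rose, had 28, while the windows of Rbfox1, Myo7a, Nqo1 and Ptx3 held 3, 4, 7 and 3. The median was 6 over the 27457 rat promoters in the table and 16 over those of tested genes, of which 10071 of 14029 symbols were matched; this is under 80%, so it is given as a value only. The motifs searched on both strands of these 250 bases were the TATA box TATAAA, the cAMP response element TGACGTCA, the antioxidant response element TGACNNNGC and the E-box CACGTG. The only match among the printed genes was TATAAA in Nqo1, from 59 to 54 bases before the start. TATAAA is held by 13.1% of all promoters in the table (6.45% of the matched tested genes), TGACGTCA by 1.70% (2.81%), TGACNNNGC by 10.2% (12.6%) and CACGTG by 5.79% (7.92%). A match is a description of letters and not of a bound site.

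Prkaa2 gave the largest change of any gene at 5 CPM or more, and no other AMPK subunit was called. It stood at 488, 435 and 633 CPM in the WT libraries and at 78.1, 95.4 and 88.1 CPM in the K815R libraries. Every WT library held over 4 times the highest K815R library, and the LacZ libraries, at 55.4, 54.8 and 72.7 CPM, lay just under K815R. The libraries labelled K815Q were higher still, at 1232, 1134 and 1138 CPM. As for Kat6a, these counts cannot tell transcripts of the rat gene from those of a delivered gene. Whether all Prkaa2 reads come from the rat gene was not tested. The fall from WT to K815R was called (adjusted p = 0.000181) and held without any 1 library (-2.68 to -2.40). Against LacZ, Prkaa2 was 3.09 in WT (adjusted p = 2.51e-05) and 0.52 in K815R (adjusted p = 0.190).

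The other AMPK genes did not pass the test. The alpha-1 subunit Prkaa1 was 45.6, 41.5 and 36.4 CPM in WT and 47.7, 37.6 and 42.8 CPM in K815R, with overlapping libraries (0.049 ± 0.093). The beta subunits Prkab1 and Prkab2 differed by -0.088 ± 0.048 and 0.11 ± 0.076, and the gamma subunits Prkag1 and Prkag2 by -0.17 ± 0.056 and 0.022 ± 0.079. Their adjusted p-values lay between 0.131 and 0.948. Of 14 tested AMPK subunits and upstream kinases, 1 was called lower and 0 higher, with a median of 0.0086. This call is 7.14% of the list, against 2.2% of all tested genes. Among 20 AMPK and mTOR effectors 0 were called, 13 lay below 0, and the median was -0.054. The lowest adjusted p in that list was 0.0562, just above the threshold, for Eif4ebp1, which lay above 0 (0.17 ± 0.048). By the edgeR test 8 of the 20 had an unadjusted p under 0.05 (40%, against 13.8% of all tested genes). All of these but Eif4ebp1 lay below 0. The libraries of the groups did not overlap for 9 (45%, against 19% of all tested genes). Acacb, the acetyl-CoA carboxylase at the mitochondrial surface and a classic AMPK substrate, was -0.20 ± 0.058 (adjusted p = 0.0725).

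**Figure D2:**
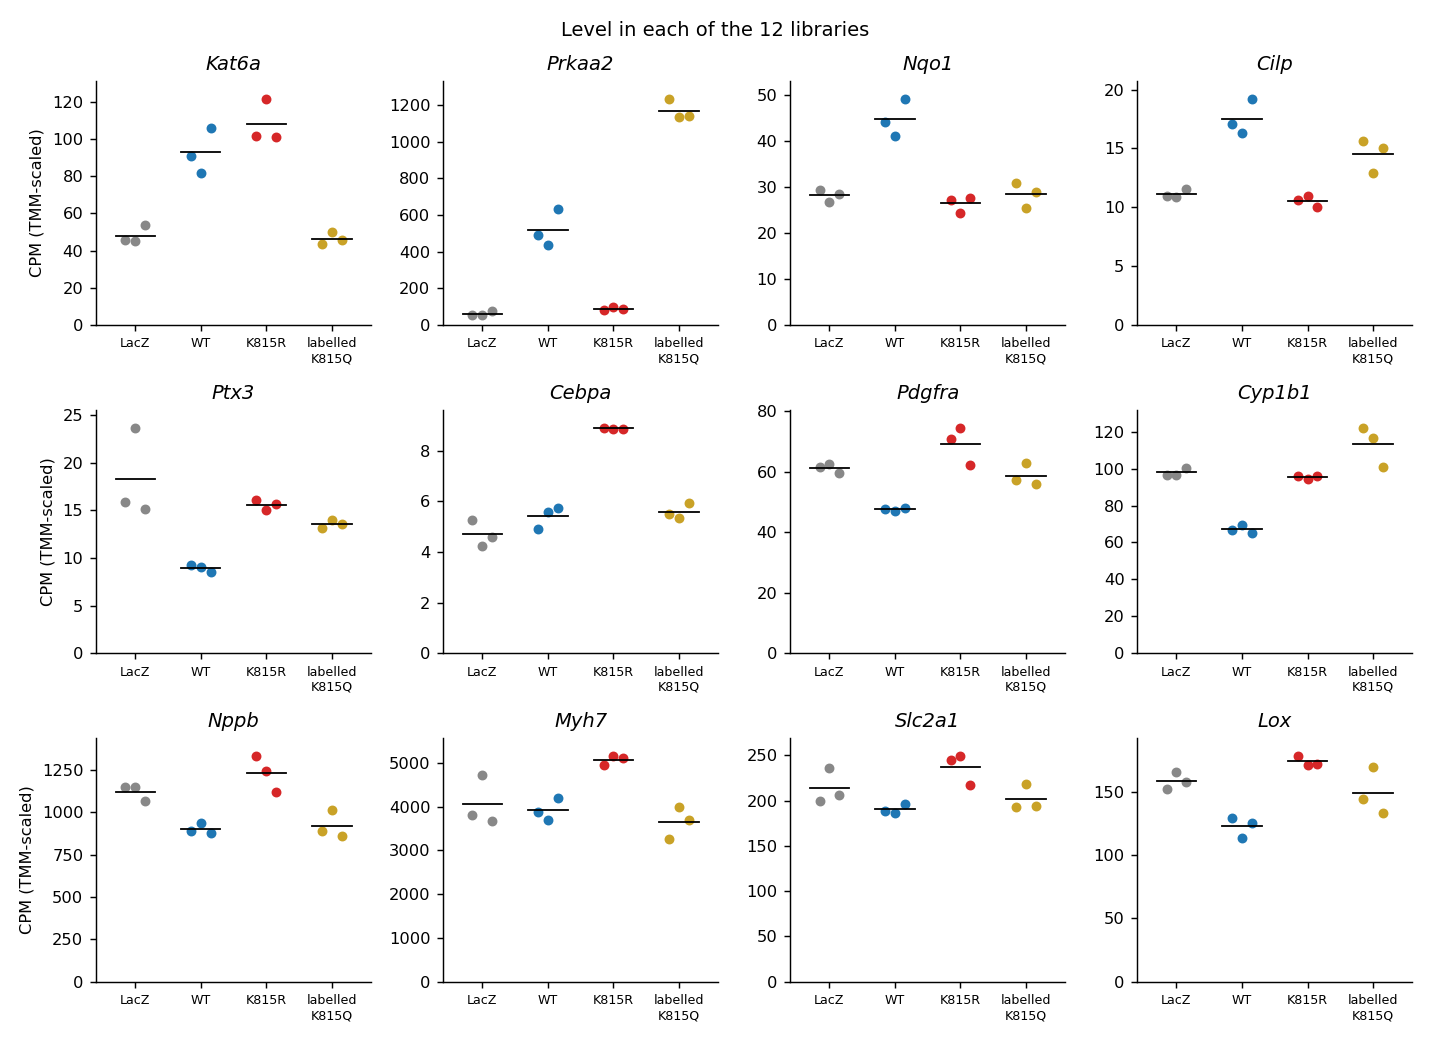
CPM of 12 genes in each of the 12 libraries (points) with the mean of each group (line); axes start at 0. Kat6a is high in WT and K815R, whereas Prkaa2 is high in the K815Q-labelled libraries and in WT, and the remaining genes separate WT from K815R.

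Some genes of cardiac growth and the fetal program rose in K815R. In the hypertrophy and fetal list 35.3% of 17 tested members were called, against 2.2% of all tested genes. Of the 17, 6 rose, 0 fell, 11 were not called and 5 lay below 0, with a median of 0.18. The lowest of these was the stress cytokine Gdf15 (-0.38 ± 0.13, adjusted p = 0.166). Both natriuretic peptides rose: Nppb, the B-type peptide secreted by stretched ventricle, had 889.6, 937 and 880.5 CPM in WT and 1332, 1245 and 1123 CPM in K815R. All K815R libraries lay above all WT libraries, and the LacZ libraries, at 1149, 1147 and 1068 CPM, lay between or within the K815R range. Nppb rose by 0.45 ± 0.065 (adjusted p = 0.000596), with no library deciding the call. Nppa, the atrial peptide, had 11629, 9671 and 11829 CPM in WT and 13857, 12979.5 and 13763 CPM in K815R. Its groups did not overlap, although WT library 2 lay well below the other WT libraries (0.29 ± 0.073, adjusted p = 0.0370).

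Of the contractile and stress-response members, Myh7, Ankrd1, Rcan1 and Csrp3 rose. Myh7, the slow beta-myosin heavy chain of the fetal rat ventricle, was 3875, 3682 and 4189.9 CPM in WT and 4945, 5153 and 5100.0 CPM in K815R (0.37 ± 0.088). Ankrd1, a titin-bound stress protein, was 3066, 3273 and 2612 CPM in WT and 4382, 4181 and 3580.4 CPM in K815R (0.44 ± 0.10, adjusted p = 0.0465). In both genes every K815R library exceeded every WT library. The calcineurin feedback gene Rcan1 (0.27 ± 0.064) and the Z-disc mechanosensor Csrp3 (0.19 ± 0.048) also rose. Myh6, the fast alpha-myosin of the adult rat heart, was at 12615, 13290.2 and 13119 CPM in WT and 12020.4, 12544 and 12603 CPM in K815R and was not called (-0.07 ± 0.056). Apart from Nppb, these calls were close to the threshold: Nppa was not called without WT library 1 or 2, K815R library 1 or 3 or labelled K815Q library 1 (0.21 to 0.35), nor with only the 6 libraries compared, nor without those labelled K815Q. Ankrd1 was lost without any 1 WT library, K815R library 1 or 2, LacZ library 1 or 3 or labelled K815Q library 1, and with no filter on low counts (0.35 to 0.52). Rcan1 was lost without any 1 WT library or K815R library 2 (0.20 to 0.31). Myh7 (0.33 to 0.42) and Csrp3 (0.18 to 0.20) were lost without any 1 of the 6, Myh7 also without labelled K815Q library 3 and Csrp3 without all labelled K815Q. By the edgeR test against LacZ, Nppb and Rcan1 were lower in WT (-0.31 and -0.28, adjusted p = 0.00498 and 0.00991). In K815R against LacZ they were not called (0.14 and -0.015). Ankrd1 was higher in K815R than in LacZ (0.46, adjusted p = 0.0336) and not called in WT (0.021). Nppa, Myh7 and Csrp3 were called in neither, at 0.23, 0.32 and 0.15 in K815R and -0.067, -0.053 and -0.038 in WT. These contrasts share libraries and are not independent.

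Several adult muscle genes fell. Of 23 tested adult cardiac genes, 3 fell, 0 rose, 18 lay below 0, and the median was -0.10. The called share was 13%, against 2.2% of all tested genes. Dhrs7c, a short-chain dehydrogenase of the sarcoplasmic reticulum, was 18.6, 21.6 and 17.8 CPM in WT and 14.5, 12.0 and 14.1 CPM in K815R (-0.52 ± 0.097, adjusted p = 0.00580). Ckmt2, the mitochondrial creatine kinase of muscle, was 20.4, 25.9 and 21.6 CPM in WT and 18.8, 15.4 and 15.0 CPM in K815R (-0.47 ± 0.095). Mb, myoglobin, was 1113, 1156 and 1188 CPM in WT and 1042, 819 and 966 CPM in K815R (-0.29 ± 0.068). In each case the lowest WT library was above the highest K815R library. Outside the list, the slow-muscle myosin gene Myh7b (-0.38 ± 0.051, adjusted p = 0.000193), Rnf207, a cardiac ubiquitin ligase linked to repolarization (-0.37 ± 0.05), and Carns1, which makes the muscle dipeptide carnosine (-0.44 ± 0.057), were among the 40 lowest p-values. Dhrs7c, Myh7b, Rnf207 and Carns1 were called without any 1 library, Ckmt2 was lost without WT library 2 or K815R library 2 or 3 (-0.57 to -0.36), and Mb was lost without any 1 WT library or K815R library 2 or 3 (-0.37 to -0.20) and with only the 6 libraries. By the edgeR test against LacZ, Mb, Myh7b, Rnf207 and Carns1 were called higher in WT (0.31, 0.57, 0.44 and 0.35). In K815R against LacZ these genes were not called (0.022, 0.19, 0.068 and -0.096). Ckmt2 went the other way, called lower in K815R than in LacZ (-0.45) and not called in WT (0.022). Dhrs7c was called in neither (-0.20 in K815R and 0.32 in WT). These contrasts share libraries and are not independent. Cardiomyocyte identity genes gave 0 calls of 22 in K815R against WT, with a median of -0.0030, and Tnnt2, cardiac troponin T, stood at 8802, 8525 and 8242 CPM in WT and 9051, 8235 and 8543 CPM in K815R. Their summed level was 42787 to 44959.9 CPM in WT and 44719 to 47762 CPM in K815R. In bulk RNA, fewer cells of a type and less RNA per cell cannot be told apart.

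**Figure D3:**
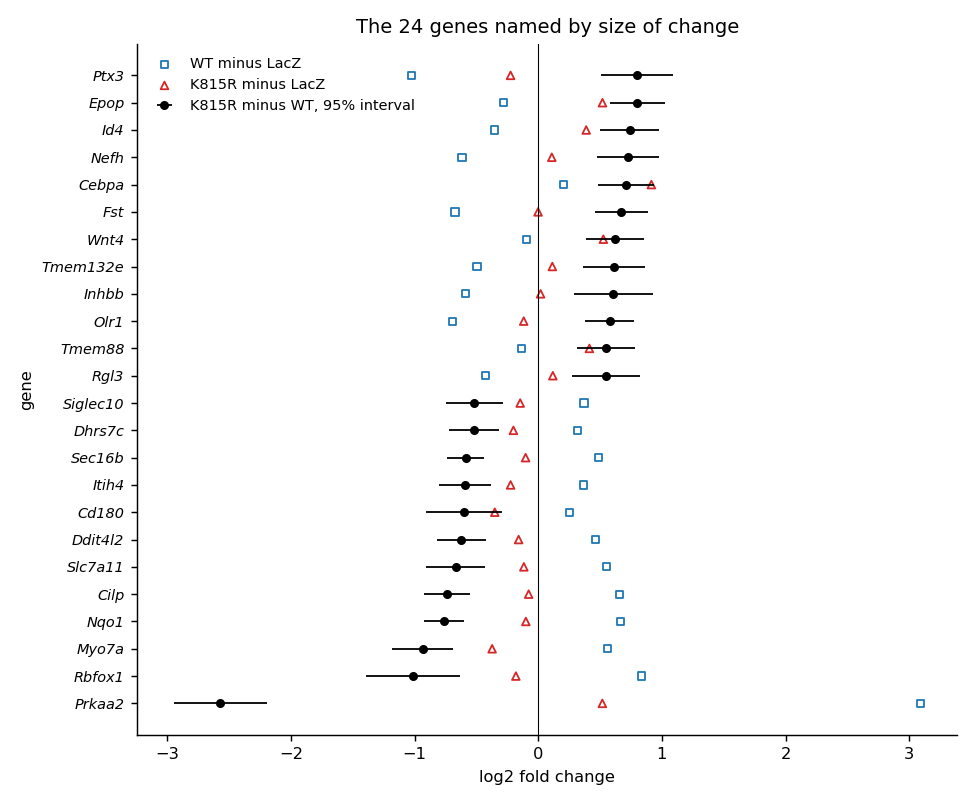
The 24 genes with the largest called changes at 5 CPM or more: K815R minus WT with its 95% interval (black), beside WT minus LacZ (blue squares) and K815R minus LacZ (red triangles). Prkaa2 lies far to the left at -2.57, and the other 23 lie between -1.01 and 0.80.

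The lists of mitochondrial respiration, biogenesis and dynamics held no called gene. Called genes of other lists do act in mitochondria: Ckmt2 above, and Cox4i2, Aldh1l2 and Pdk3 below. Nuclear subunits of oxidative phosphorylation gave 0 calls in 78 tested rows, with a median of -0.024 and a lowest adjusted p of 0.283. The 13 messenger RNAs of mitochondrial DNA gave 0 calls, 12 of them above 0, with a median of 0.12. Biogenesis regulators of the PGC-1 family gave 0 calls of 19: Ppargc1a, the coactivator PGC-1 alpha, was -0.17 ± 0.09, its partner Esrra -0.034 ± 0.05, and Tfam, which packages mitochondrial DNA, 0.086 ± 0.055. The 95% intervals were -0.36 to 0.019, -0.14 to 0.07 and -0.028 to 0.20, so a change of 0.40, the median size among called genes, lies outside all 3 in either direction. Mitochondrial dynamics and quality control gave 0 calls of 12. Fatty acid uptake and oxidation gave 0 of 30, with Cpt1b, the carnitine transferase that admits fatty acids to mitochondria, at 0.1 ± 0.059 and the pyruvate dehydrogenase kinase Pdk4 at 0.082 ± 0.14.

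Messenger RNAs of a glucose and a lactate transporter rose. Slc2a1, the basal glucose transporter GLUT-1, was 188, 187 and 196 CPM in WT and 246, 249 and 218 CPM in K815R (0.32 ± 0.066, adjusted p = 0.0146). Slc16a3, the lactate exporter, was 213, 191 and 235 CPM in WT and 272, 277 and 278 CPM in K815R (0.37 ± 0.078). Neither pair of groups overlapped, although the lowest K815R level of Slc2a1, in library 3, came within the LacZ range of 199.9, 236 and 207 CPM. Of 21 tested genes of glucose uptake and glycolysis, these 2 rose, Pgam2, the muscle phosphoglycerate mutase, fell (-0.33 ± 0.078), 18 were not called, and the median was 0.095. The called share was 14.3%, against 2.2% of all tested genes. Pygl, a glycogen phosphorylase, rose (0.45 ± 0.062, adjusted p = 0.000268) and is outside that list. In the TCA cycle and pyruvate dehydrogenase list 1 of 24 rose, the kinase Pdk3 (0.32 ± 0.072), with 20 of 24 below 0 and a median of -0.043. In cholesterol and fatty acid synthesis 1 of 21 rose, the squalene synthase Fdft1 (0.22 ± 0.052), and the median was 0.066. A single call is 4.17% and 4.76% of these lists, near the 2.2% of all tested genes, and is no result about either list. Only Pygl kept its call in every fit without 1 library: Slc2a1 lost it without WT library 1 or 2 or K815R library 1 or 2 (0.28 to 0.38), Slc16a3 without WT library 1 or 2 or any 1 K815R library (0.30 to 0.45), Pgam2 without WT library 1 or 2 or K815R library 2 or 3 (-0.38 to -0.27), Pdk3 without WT library 2 or K815R library 2 or 3 (0.25 to 0.36) and Fdft1 without WT library 2 or 3 or K815R library 1 or 2 (0.20 to 0.25).

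Some genes known as targets of the hypoxia-inducible factors (HIF) rose in K815R. The list of them was drawn up after values had been seen, so its counts describe the data and support nothing. Of 31 tested members 11 rose, 0 fell, 20 were not called, 30 lay above 0 and the median was 0.22, against -0.0031 over all tested genes. Called members made up 35.5%, against 2.2% of all tested genes. Adm, the vasodilator peptide adrenomedullin, had 26.8, 27.0 and 31.7 CPM in WT and 44.0, 43.3 and 35.5 CPM in K815R (0.52 ± 0.091). Cox4i2, the oxygen-sensitive isoform of a cytochrome oxidase subunit, had 11.2, 11.5 and 13.5 CPM in WT and 17.6, 17.6 and 17.1 CPM in K815R (0.53 ± 0.097). Lox, the collagen cross-linking lysyl oxidase, had 129, 113 and 125 CPM in WT and 178, 171 and 172 CPM in K815R (0.50 ± 0.07, adjusted p = 0.000613). In all 3 genes the groups were apart. LacZ stood at 44.4, 48.8 and 40.6 CPM for Adm and at 16.5, 19.3 and 15.7 CPM for Cox4i2, inside or near the K815R range. The collagen-modifying hydroxylases P4ha2 (0.34 ± 0.08), P4ha1 (0.22 ± 0.049), Plod2 (0.28 ± 0.059) and Plod1 (0.20 ± 0.053), the oxidase of disulfide formation Ero1a (0.33 ± 0.068) and the HIF prolyl hydroxylase Egln1 (0.31 ± 0.058) rose with Slc2a1 and Slc16a3. Vegfa, the endothelial growth factor, at 946, 860.1 and 963 CPM in WT and 1099, 1015 and 948 CPM in K815R (0.15 ± 0.11), and Ldha, lactate dehydrogenase A (0.10 ± 0.061), were not called. Against LacZ, Adm was -0.64 in WT (adjusted p = 0.000239) and -0.12 in K815R (adjusted p = 0.591). Cox4i2, Lox, P4ha2, P4ha1, Plod2 and Ero1a were also called lower in WT than in LacZ (-0.51, -0.37, -0.34, -0.20, -0.31 and -0.26). In K815R against LacZ they were not called (0.022, 0.13, -0.0026, 0.019, -0.027 and 0.076). Plod1, Egln1, Slc2a1 and Slc16a3 were called in neither. These contrasts share libraries and are not independent. Adm, Cox4i2, Lox and Egln1 were called without any 1 library. Ero1a (0.29 to 0.38) and P4ha1 (0.20 to 0.25) lost their calls without WT library 1 or 2 or K815R library 1 or 2, and Plod2 without WT library 2 or 3 or K815R library 1 (0.25 to 0.32). P4ha2 (0.30 to 0.39) and Plod1 (0.18 to 0.23) lost theirs without LacZ library 1, labelled K815Q library 3 or any 1 of the 6 libraries compared, except that P4ha2 held without WT library 3.

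Called redox and xenobiotic genes went in both directions. Nqo1 had the lowest p-value of all genes, at 44.2, 41.0 and 49.1 CPM in WT and 27.2, 24.4 and 27.6 CPM in K815R. The K815R libraries lay within or just under the LacZ range of 29.5, 26.8 and 28.6 CPM, and all WT libraries lay above 40 CPM (-0.76 ± 0.078, adjusted p = 2.02e-05). Cyp1b1, a cytochrome P450 of the aryl hydrocarbon receptor pathway, had the second-lowest p-value, at 66.9, 69.7 and 65.0 CPM in WT and 96.2, 94.2 and 95.8 CPM in K815R. Here WT was the low group and K815R lay just under the 96.8, 96.7 and 101 CPM of LacZ (0.51 ± 0.059, adjusted p = 7.62e-05). Against LacZ, Nqo1 was 0.66 in WT (adjusted p = 1.32e-05) and -0.10 in K815R (adjusted p = 0.638), and Cyp1b1 was -0.54 (adjusted p = 5.69e-06) and -0.039 (adjusted p = 0.833). Slc7a11, the cystine importer that feeds glutathione, was 14.2, 13.0 and 11.7 CPM in WT and 8.76, 6.98 and 8.90 CPM in K815R with no overlap (-0.67 ± 0.11, adjusted p = 0.00248). These comparisons with LacZ share libraries with K815R against WT and are not independent of it.

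Of 20 NRF2 targets, 3 fell (15%, against 2.2% of all tested genes called), 0 rose, and the median was -0.0078. The third was the aldo-keto reductase Akr1b8 (-0.36 ± 0.084). In the ATF4 integrated stress response list of 22, 3 fell, 1 rose (18.2% called), 17 lay below 0, and the median was -0.079. The 3 were Slc7a11, the mitochondrial folate enzyme Aldh1l2 (-0.30 ± 0.065) and the serine synthesis enzyme Phgdh (-0.25 ± 0.063), and the gene that rose was Cebpb, a transcription factor shared with the inflammatory list (0.31 ± 0.063). Among 7 aryl hydrocarbon receptor genes, again a list chosen after values were seen, Cyp1b1 rose while Nqo1 and Cyp1a1 fell. Called members made up 42.9%, against 2.2% of all tested genes, and this share likewise supports nothing. Cyp1a1, the classic receptor target, was low in all groups at 1.12, 0.879 and 1.28 CPM in WT and 0.309, 0.552 and 0.363 CPM in K815R (-1.38 ± 0.33). Of 27 p53 and senescence genes 1 rose, Phlda3 (0.23 ± 0.054), and of 23 heat shock proteins 1 rose, Hspa2 (0.37 ± 0.081), with medians of 0.020 and 0.023. These shares, 3.70% and 4.35%, are near the 2.2% of all tested genes and are no result about either list. Hspa2 was at 19.4, 16.9 and 21.7 CPM in WT, 24.2, 25.0 and 25.7 CPM in K815R and 12.9, 13.5 and 12.7 CPM in LacZ, so WT lay between the other groups. Nqo1, Cyp1b1 and Slc7a11 were called without any 1 library. Akr1b8 (-0.41 to -0.28), Aldh1l2 (-0.32 to -0.26), Phgdh (-0.27 to -0.21), Cyp1a1 (-1.68 to -1.23) and Phlda3 (0.23 to 0.25) were not called without WT library 1 or 3 or K815R library 1. All of these but Aldh1l2 were also lost without K815R library 3, Akr1b8, Phgdh and Phlda3 without WT library 2, Phgdh without K815R library 2, and Cyp1a1 with DESeq2. Cebpb was lost without WT library 1 or K815R library 3 (0.24 to 0.36), and Hspa2 without WT library 1 or 2 or K815R library 3 (0.28 to 0.46).

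**Figure D4:**
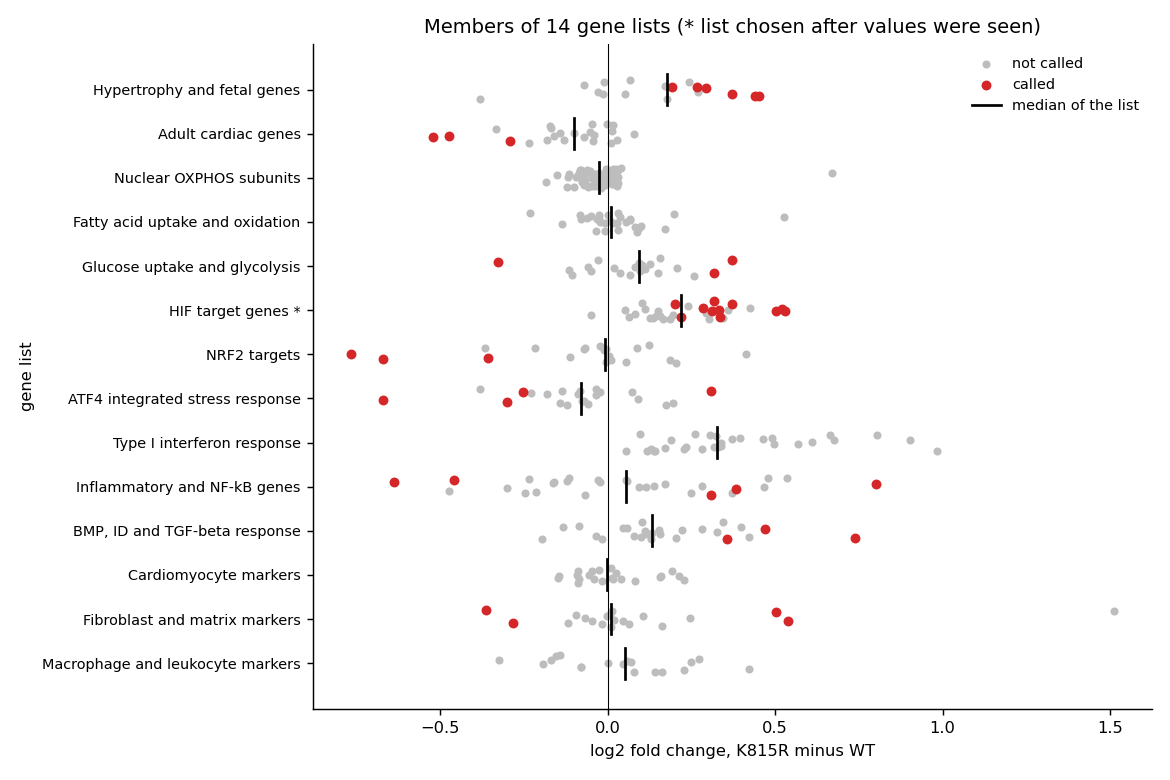
Log2 fold change of K815R minus WT for each tested member (point) of 14 gene lists, with called members in red and the list median as a black bar; the HIF target list was chosen after values had been seen. Hypertrophy and HIF genes carry red points to the right, adult cardiac and NRF2 genes to the left, and all interferon genes lie right of 0 without a call.

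Among genes of the extracellular matrix and of growth factor signalling, some rose and some fell. Pdgfra, the receptor for platelet-derived growth factor on fibroblasts and their progenitors, was 47.7, 47.1 and 48.1 CPM in WT and 70.7, 74.6 and 62.3 CPM in K815R, with the third-lowest p-value of all genes. Every K815R library exceeded every WT library, and LacZ lay at 61.5, 62.6 and 59.6 CPM (0.54 ± 0.063, adjusted p = 7.62e-05). Postn, periostin, a matricellular protein of activated fibroblasts, went the other way, from 388, 437 and 373 CPM in WT to 319, 294 and 318 CPM in K815R (-0.36 ± 0.061, adjusted p = 0.00226). Cilp fell from 17.1, 16.3 and 19.2 CPM to 10.6, 10.9 and 10.0 CPM with the groups far apart, and LacZ, at 10.9, 10.9 and 11.5 CPM, stood at the top of the K815R range or just above it. Fbln2, fibulin-2, fell as well (-0.28 ± 0.053). Of 20 fibroblast and matrix markers, Pdgfra and Lox rose, Postn and Fbln2 fell, and the median was 0.011. The called share was 20%, against 2.2% of all tested genes. The abundant collagen gene Col1a1 was 7264, 7659 and 7213 CPM in WT and 7655, 7441 and 7345 CPM in K815R and was not called (0.02 ± 0.055). The summed level of the list was 21635 to 23068 CPM in WT and 21736 to 22581 CPM in K815R, and the part of fibroblast number in these changes was not tested. Pdgfra, Postn, Cilp and Fbln2 were called without any 1 library.

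In a list of secreted activin, BMP and WNT factors and antagonists drawn up after values were seen, 9 of 25 tested members rose, 2 fell, 14 were not called and the median was 0.25. Called members made up 44%, against 2.2% of all tested genes, but counts of a list drawn up in this way support nothing. Of the 9, Wnt7b and Wnt10b passed the filter on low counts only through K815R. Fst, follistatin, which binds and blocks activin, was 7.40, 8.84 and 6.80 CPM in WT and 11.5, 12.1 and 13.0 CPM in K815R (0.67 ± 0.10, adjusted p = 0.00111). Inhbb, a subunit of activin B and inhibin B, was 6.09, 7.08 and 6.84 CPM in WT and 9.38, 11.7 and 9.22 CPM in K815R (0.60 ± 0.15, adjusted p = 0.0446). Both rose, and for both the K815R libraries overlapped those of LacZ. Wnt4, a WNT ligand, was 5.32, 5.27 and 6.99 CPM in WT and 8.96, 9.07 and 9.08 CPM in K815R, with K815R also above the 6.83, 5.70 and 6.27 CPM of LacZ (0.62 ± 0.11). Gdf11, a TGF-beta family ligand (0.41 ± 0.069), Bmp6 (0.47 ± 0.099), the BMP antagonist Chrd (0.65 ± 0.15) and the WNT potentiator Rspo3 (0.79 ± 0.16) rose. Ccn5 (-0.45 ± 0.092) and Ccn4 (-0.37 ± 0.096), matricellular proteins first described as WNT-induced, fell. In the BMP, ID and TGF-beta response list 3 of 26 rose, Id4, Bmp6 and the inhibitory Smad7 (0.36 ± 0.09), 0 fell, and the median was 0.13. The called share was 11.5%, against 2.2% of all tested genes. Id4 was 5.93, 4.91 and 5.42 CPM in WT and 9.74, 8.99 and 8.49 CPM in K815R without overlap. Inhbb lost its call without any 1 of the 6 libraries or LacZ library 1 or 3 (0.48 to 0.67), Smad7 without any 1 WT or LacZ library, K815R library 1 or 2 or labelled K815Q library 2 (0.28 to 0.45), Bmp6 without WT library 2 or 3 or K815R library 2 (0.42 to 0.53), Chrd without WT library 1 or 3 or K815R library 2 or 3 (0.54 to 0.79), Rspo3 without WT library 2 (0.71 to 0.85), and Ccn5 without WT library 2 or K815R library 2 or 3 (-0.53 to -0.37). Ccn4 was lost without any 1 WT library, K815R library 1 or 3, LacZ library 1 or labelled K815Q library 1 or 3 (-0.47 to -0.29), with DESeq2, with only the 6 libraries, and without all labelled K815Q. Of 25 immediate early genes 2 rose, the flow- and stress-induced factors Klf2 (0.40 ± 0.09) and Klf4 (0.35 ± 0.08), and the median was 0.13. These 2 are 8% of the list, against 2.2% of all tested genes. Klf2 was lost without any 1 WT library or K815R library 3 (0.34 to 0.43), and Klf4 without WT library 2 or 3 or K815R library 1 or 3 (0.28 to 0.42).

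Innate immune genes were mixed. Ptx3 had 9.28, 9.04 and 8.55 CPM in WT and 16.1, 15.1 and 15.7 CPM in K815R, and LacZ, at 15.9, 23.7 and 15.2 CPM, spread around and above K815R with library 2 highest. All K815R libraries exceeded all WT libraries (0.80 ± 0.14, adjusted p = 0.00586). The chemokine Cxcl12, which retains progenitors and leukocytes, rose (0.38 ± 0.079), and the leukocyte chemokines Ccl2 and Ccl20 fell. Ccl2 was 133, 128 and 138 CPM in WT and 95.8, 93.7 and 101 CPM in K815R (-0.46 ± 0.08, adjusted p = 0.00764), and Ccl20 was 5.68, 5.22 and 4.47 CPM and 3.14, 2.92 and 3.81 CPM (-0.64 ± 0.14). Of 29 inflammatory and NF-kB genes 3 rose, Ptx3, Cxcl12 and Cebpb, 2 fell, and the median was 0.057. The called share was 17.2%, against 2.2% of all tested genes. Outside this list, Olr1, the lectin-like receptor for oxidized lipoprotein (0.58 ± 0.096), and Osmr, the oncostatin M receptor (0.46 ± 0.067), rose, and the B-cell and macrophage surface gene Cd180 (-0.60 ± 0.15) and the sialic acid-binding Siglec10 (-0.52 ± 0.11) fell. Macrophage and leukocyte markers gave 0 calls of 18, with a median of 0.052 and a summed level of 203 to 218 CPM in WT and 193 to 209.8 CPM in K815R. Of its defining members, Ptprc was 3.45, 2.95 and 2.99 CPM in WT and 3.61, 3.31 and 2.95 CPM in K815R, and Cd68 was 16.9, 16.2 and 15.1 CPM and 17.3, 15.5 and 17.4 CPM, both overlapping. None of these was at 0, and the part of leukocyte number in the chemokine changes was not tested. Ptx3, Olr1 and Osmr were called without any 1 library, Ccl2 was lost without K815R library 2 (-0.49 to -0.43), Cxcl12 and Siglec10 without WT library 3 or K815R library 2 (0.33 to 0.46 and -0.55 to -0.46), Ccl20 without WT library 1 or 2 or K815R library 1 or 2 (-0.76 to -0.55) and Cd180 without any 1 of the 6 (-0.65 to -0.58).

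Interferon-stimulated genes lay uniformly above 0 without a single call. Of 30 tested members of the type I interferon list, 30 had a positive log2 fold change, the median was 0.33, and 0 were called with edgeR. At an unadjusted p under 0.05 there were 3 (10.0%), against 13.8% of all tested genes, and the libraries of the groups did not overlap for 5 (16.7%), against 19% of all tested genes. Irf7, a transcription factor that amplifies interferon, illustrates the spread: 22.7, 9.30 and 11.1 CPM in WT, 29.3, 20.1 and 19.9 CPM in K815R and 75.0, 153 and 81.9 CPM in LacZ. WT library 1 lay inside the K815R range (0.68 ± 0.43, 95% interval -0.31 to 1.66). Ifit3, an antiviral effector, was 3.40, 1.55 and 2.90 CPM in WT and 5.25, 3.11 and 3.86 CPM in K815R, again with overlap (0.61 ± 0.53). The MHC class I and antigen presentation list gave 0 calls of 16, 14 of them above 0, with a median of 0.18. These genes share 1 response and are not independent of each other.

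The steepest changes lay in genes close to silence, several of them developmental regulators, and they are given as raw reads. Barx1, a homeobox factor of stomach and craniofacial mesenchyme, had 0, 1 and 0 reads in the WT libraries and 12, 20 and 11 reads in the K815R libraries. LacZ had 0, 0 and 0 and the libraries labelled K815Q 0, 0 and 0. The ratio of K815R to WT reads, scaled by library size, was 38.7 (95% interval 6.58 to 1563), where the interval covers counting error only. Pou3f1, a POU factor of neural and Schwann cell development, had 3, 3 and 3 reads in WT and 22, 38 and 27 in K815R, a ratio of 8.70 (95% interval 4.38 to 19.7). Foxd1, a forkhead factor of kidney stroma and retina, had 1, 1 and 2 reads in WT and 11, 15 and 25 in K815R, a ratio of 11.5 (95% interval 4.22 to 43.7). The WNT ligand gene Wnt7b had 2, 0 and 2 reads and 17, 17 and 16 reads, a ratio of 11.2 (95% interval 4.13 to 42.9). In each of these 4 genes every K815R library exceeded every other library of the series. All 4 passed the filter on low counts only through the K815R libraries, so that a gene of this level had to differ in order to be tested. Their reads are therefore a description, and no p-value is given. All 4 fell out where genes needed 10 reads in every library.

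Further genes of this kind were chosen after their values were seen, and Nkx6-1, Dio3, Nefm, Ina, Wnt10b and Csmd1 likewise passed the filter only through the form where they were high. Nkx6-1, a homeobox factor of pancreatic beta cells and motor neurons, had 0, 3 and 2 reads in WT and 15, 17 and 12 in K815R, a ratio of 7.92 (95% interval 3.15 to 25.6). Dio3, the deiodinase that inactivates thyroid hormone, had 1, 4 and 4 reads and 13, 18 and 18 reads, while Dio1, the activating type I deiodinase, which other groups also carried past the filter, fell from 32, 66 and 38 to 17, 18 and 15 reads. Both deiodinase ranges were apart between WT and K815R. The neuronal intermediate filaments Nefm (3, 4 and 4 against 16, 17 and 16 reads) and Ina (5, 4 and 4 against 12, 18 and 18) had more reads in every K815R library than in any WT library, as did the ligand Wnt10b (4, 9 and 3 against 20, 23 and 18). The more abundant neurofilament gene Nefh rose, at 4.97, 4.24 and 5.75 against 8.91, 7.92 and 8.04 CPM. The fetal chromatin protein Hmga2 (13, 17 and 12 against 24, 38 and 46 reads) rose as well. Csmd1, a large complement-control membrane protein of brain, had 13, 16 and 22 reads in WT and 5, 2 and 4 in K815R. Hmga2 was not called by DESeq2 and was lost without WT library 1 or 3 or K815R library 3 (0.97 to 1.39), and Dio1 was lost without WT library 2 (-1.78 to -1.19). The promoters of Foxd1 (chr2:31436552-31436801, plus strand) and Nkx6-1 (chr14:8273988-8274237, plus strand), in the same notation, show where these low-level homeobox and forkhead genes start.
Foxd1: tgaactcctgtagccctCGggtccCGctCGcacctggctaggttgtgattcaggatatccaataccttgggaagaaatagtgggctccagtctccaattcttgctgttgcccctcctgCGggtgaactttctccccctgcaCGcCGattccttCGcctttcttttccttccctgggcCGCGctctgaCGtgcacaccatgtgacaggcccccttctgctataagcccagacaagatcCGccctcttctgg
Nkx6-1: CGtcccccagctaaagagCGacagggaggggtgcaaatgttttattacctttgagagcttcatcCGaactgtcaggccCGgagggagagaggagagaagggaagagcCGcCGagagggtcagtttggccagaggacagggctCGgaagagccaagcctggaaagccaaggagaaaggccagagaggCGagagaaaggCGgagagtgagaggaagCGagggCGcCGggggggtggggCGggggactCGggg
They held 11 and 14 CG dinucleotides and no match to the motifs searched.

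**Figure D5:**
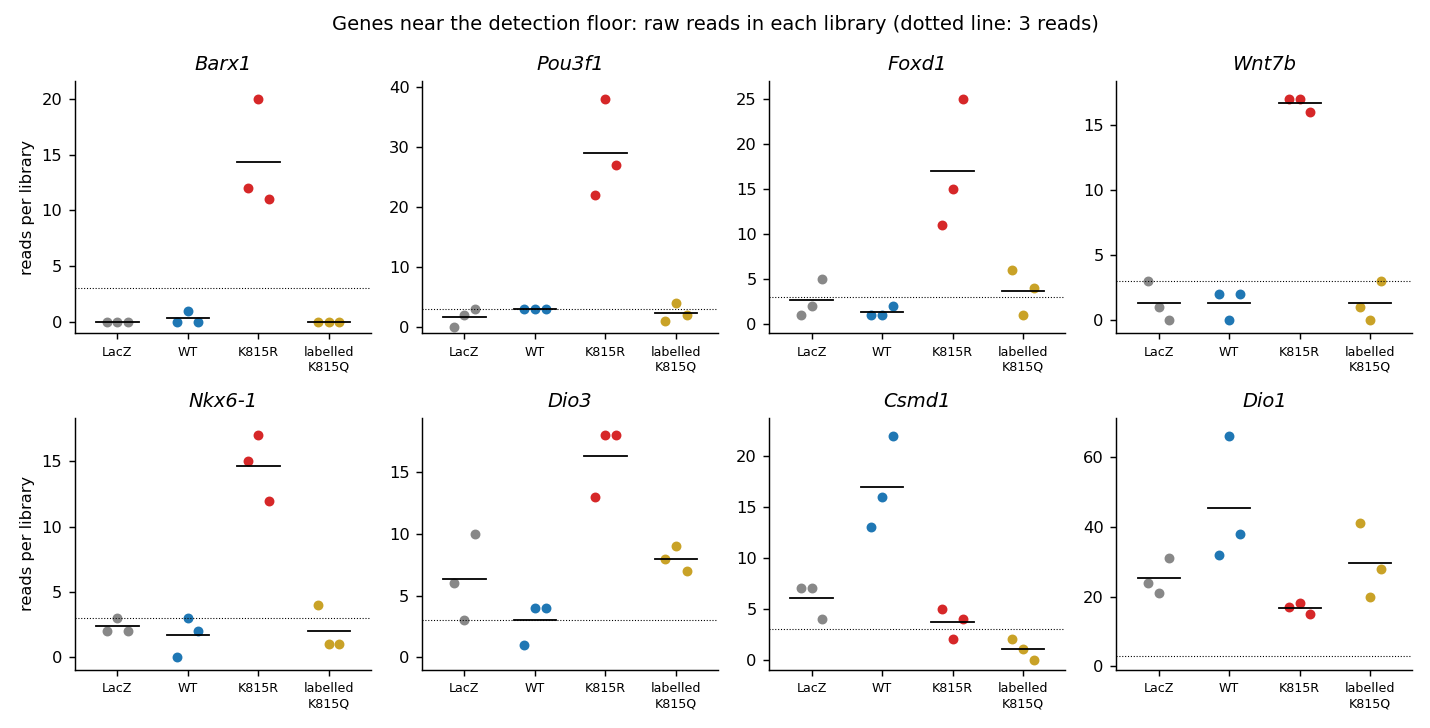
Raw reads of 8 genes near the detection floor in each of the 12 libraries (points) with the mean of each group (line) and a dotted line at 3 reads. Barx1, Pou3f1, Foxd1, Wnt7b, Nkx6-1 and Dio3 are highest in the 3 K815R libraries, while Csmd1 is highest in the 3 WT libraries. Dio1 has its highest mean in WT, but labelled K815Q library 1, at 41 reads, exceeds WT libraries 1 and 3, at 32 and 38 reads.

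Epop was the 1 gene called in the chromatin lists. It had 4.31, 4.19 and 4.51 CPM in WT, 7.78, 7.72 and 7.17 CPM in K815R and 5.53, 4.99 and 5.29 CPM in LacZ. The K815R libraries stood above all others (0.80 ± 0.11, adjusted p = 0.000197), and the median of the 25 Polycomb genes was 0.025. Cebpa had a like pattern, with 4.92, 5.58 and 5.75 CPM in WT, 8.91, 8.87 and 8.85 CPM in K815R and 5.28, 4.23 and 4.59 CPM in LacZ (0.71 ± 0.11, adjusted p = 0.000956). Both were higher in K815R than in LacZ, by 0.52 (adjusted p = 0.00546) and 0.91 (adjusted p = 3.79e-05). The KAT6A complex and its relatives gave 0 calls of 14, with the paralog Kat6b at -0.25 ± 0.094, and 22 other acetyltransferases and deacetylases gave 0. Of 25 HOX genes and other loci linked to KAT6A, only 8 passed the filter on low counts, and 0 of those were called, with a median of 0.0085. The only HOX genes among the 8 were Hoxb2 and Hoxb3, with means of 0.55 and 1.60 CPM in WT. Other HOX members of the list were not tested. Rbfox1 was the 1 called member of 15 muscle splicing regulators, at 7.81, 6.51 and 6.65 CPM in WT, 3.86, 3.59 and 2.95 CPM in K815R and 4.15, 3.16 and 4.43 CPM in LacZ. A single call is 4% of the Polycomb list and 6.67% of the splicing list, against 2.2% of all tested genes. Sodium, calcium and potassium channel genes gave 0 calls of 29, cytosolic ribosomal proteins 0 of 66 rows and cell cycle genes 0 of 38. Mki67, the proliferation marker, was -0.074 ± 0.07.

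The remaining genes named by size of change had fewer known cardiac roles. Higher in K815R were Tmem132e, a membrane protein of sensory cells (0.61 ± 0.12), Tmem88, which restrains WNT signalling in heart precursors (0.55 ± 0.11), and Rgl3, an effector of Ras-like GTPases (0.55 ± 0.13). Lower were Myo7a at 11.4, 11.5 and 11.4 CPM in WT and 6.95, 5.68 and 5.40 CPM in K815R, Sec16b, an organizer of endoplasmic reticulum exit sites (-0.59 ± 0.072), Itih4, a plasma inhibitor-family protein (-0.59 ± 0.10), and Ddit4l2, of the family of stress-induced mTOR inhibitors (-0.62 ± 0.096). The 3 WT libraries of Myo7a nearly coincided and lay well above the K815R libraries. Ass1, the argininosuccinate synthase of arginine recycling, fell from 6.09, 5.94 and 6.46 to 3.14, 3.35 and 3.41 CPM (-0.90 ± 0.15), and the zinc importer Slc39a6 rose from 30.3, 30.9 and 29.3 to 41.6, 42.6 and 41.0 CPM (0.47 ± 0.062). Of these, Tmem132e was lost without K815R library 3 (0.53 to 0.69), Tmem88 without WT library 3 (0.46 to 0.63) and Rgl3 without any 1 WT library, K815R library 1 or 2 (0.45 to 0.68) or with only the 6 libraries.

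Markers of the other cells that such cultures can hold gave few calls outside the fibroblast list, but their summed levels did not all overlap. Smooth muscle and pericyte markers gave 0 calls of 11. Their summed level was 6725 to 6921 CPM in WT and 7215 to 7584 CPM in K815R, a range shifted upward without overlap. Of the 11, however, 5 lay above 0 and 6 below, with a median of -0.0081, so most members did not share the shift of the sum. Endothelial markers gave 0 of 12 (381 to 448 CPM in WT, 414 to 463 CPM in K815R), and epicardial and Schwann cell markers 0 of 10 (67.4 to 75.7 and 68.1 to 71.9 CPM). Erythroid markers gave 1 call in 4 rows of 3 gene symbols (25%, against 2.2% of all tested genes). By the edgeR test 3 of the 4 had an unadjusted p under 0.05 (75%, against 13.8% of all tested genes). Their median was 0.93, and their summed level was 11.9 to 14.7 CPM in WT and 19.8 to 24.9 CPM in K815R. The beta-globin gene Hbb was 2.48, 3.10 and 2.90 CPM in WT, 6.54, 6.11 and 4.36 CPM in K815R and 9.01, 7.84 and 5.45 CPM in LacZ (1.00 ± 0.23, adjusted p = 0.0367). Its call was lost without any 1 WT library, K815R library 1 or 2 or labelled K815Q library 3 (0.90 to 1.16). Globin copies are near-identical, so the split of reads between them is uncertain. The part of these cells in the gene changes was not tested.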

How the data were processed

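The authors deposited 1 table of whole-number read counts per Ensembl gene for 12 libraries. Per the submitters' processing notes, reads were handled with Trimmomatic 0.39, HISAT2 2.2.1, HTSeq 0.6.1 and edgeR on build Rnor_6.0, and the annotation release and strand setting are not given in the sources used here. Per the labels, a strand-specific paired-end kit was sequenced as single reads, so antisense and overlapping genes are uncertain. HTSeq's 5 rows that name no gene stayed out of all sums: reads not aligned uniquely took 25.6 to 26.9% of each library, reads in no gene 11.7 to 12.9%, unaligned reads 2.68 to 3.06% and ambiguous reads 0.461 to 0.500%.

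The main test was the quasi-likelihood test of edgeR 4.0.16 (R 4.3.3, limma 3.58.1), with TMM scaling, the filter of filterByExpr by group (minimum count 10, minimum total 15), robust dispersions and 1 mean for each of the 4 groups over all 12 libraries. The Benjamini-Hochberg adjustment ran over the 14063 of 32883 genes that passed the filter. The fit was tested on simulated counts for K815R against WT over 14063 genes: of 100 genes simulated with a log2 change of 1 in either direction 89 were called in the right direction, of 100 with 0.5 there were 69, and of 13863 unchanged genes 13 were called. Raw replicate libraries differed beyond sampling noise in every pair, so none was counted as a duplicate. Alternatives tried were scaling by RLE or by the upper quartile, no filter, at least 10 counts in every library, DESeq2 1.42.0, a replicate block, only the 6 libraries compared, no libraries labelled K815Q, and leaving out each of the 12 libraries.

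Named genes were the 12 called higher and 12 called lower with the largest change among those at 5 CPM or more whose libraries did not overlap, a panel of AMPK, metabolic and growth genes, called members of 36 gene lists (at most 6 each, by p), and called genes among the 40 lowest p-values; uncalled list members are given mostly as counts. Further genes and 3 lists were chosen after their values were seen. The members and all lists were chosen with earlier results of these data known. Ratios near the floor carry exact 95% intervals for counting error only. Promoters come from a RefSeq table of build GRCr8, another build than that of the counts, so they serve as sequence only. A comparison of base composition between gene sets was void, because 10071 of 14029 tested symbols, under 80%, had a promoter there.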

Additional observations from a re-analysis of the deposited data

How the results depend on the processing

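The count of 309 called genes (185 higher, 124 lower) moved by more than 1.5 times without a filter on low counts, where 22491 genes were tested and 553 were called (341 higher, 212 lower). Over the fits that leave out 1 library the count ranged from 124 to 338, with 73 to 212 higher and 39 to 126 lower. The low ends came from leaving out a WT or K815R library, which left 2 libraries against 3. RLE scaling called 317, upper-quartile scaling 314, at least 10 counts in every library 286, DESeq2 285 (244 of the 309 kept), only the 6 libraries 274 (237 kept), and the fit without labelled K815Q 270 (253 kept). No scaling moved the median of all genes by 0.1. Over all genes, the deviations of same-numbered WT and K815R libraries from their group means had correlations of 0.092, 0.00019 and 0.012. Such a correlation pools all genes and cannot show that the numbers do not pair samples. On the second principal component of the 6 libraries (19.5% of the variance), library 1 lay at 14.3 in WT and 13.6 in K815R. The other libraries lay at -13.8 to -1.40 there. With the replicate block 343 genes were called, 291 of them among the 309. Of the 90 called genes with a recomputed value that did not pass the filter only through 1 form, 38 were called in all 12 fits without 1 library and 80 under all 8 other settings. None of the 90 changed direction in any of these fits. Among uncalled genes, direction turned for Prkag2 (-0.055 to 0.10), Prkaa1 (-0.035 to 0.14) and Tnnt2 (-0.022 to 0.046) when single libraries were left out. Genes near the floor rest on few reads, and HOX genes mostly fell under the filter.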

Other observations

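The genes below were picked from the called genes outside the lists after their values were seen, so uncalled members of the same families are not counted. The lymphatic growth factors Vegfc and Vegfd were both higher in K815R. Vegfc was 7.66, 8.06 and 9.31 CPM in WT and 11.7, 12.3 and 11.3 CPM in K815R (0.49 ± 0.094, adjusted p = 0.00611), and Vegfd was 15.4, 18.3 and 14.9 CPM and 24.2, 24.6 and 18.9 CPM (0.48 ± 0.11, adjusted p = 0.0342). The groups were apart in both, and LacZ, at 11.5, 11.8 and 11.2 CPM for Vegfc, lay near K815R. Their receptor Flt4 was also called (0.29 ± 0.074, adjusted p = 0.0479), but that call was kept only without LacZ library 2 or K815R library 1 among the fits that left out 1 library (0.17 to 0.35), and was lost with only the 6 libraries and without the libraries labelled K815Q. Vegfd was lost without WT library 1 or 3 or K815R library 1 or 2 (0.41 to 0.59).

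Another 5 called genes, all higher in K815R, are known to make, carry or bind heparan sulfate, the sugar chain that holds growth factors at the cell surface; no list of such genes was tested. They were the sulfating enzymes Hs6st1 (0.31 ± 0.059) and Hs6st2 (0.51 ± 0.10), the core proteins Gpc3 (0.40 ± 0.09) and Sdc1 (0.29 ± 0.061), and Mdk, the heparin-binding midkine (0.24 ± 0.06). Hs6st1 held without any 1 library, Hs6st2 was lost without WT library 3 (0.42 to 0.57), Sdc1 without WT library 2 or K815R library 3 (0.27 to 0.33), Gpc3 without WT library 1 or 3 or K815R library 1 or 3 (0.33 to 0.47) and Mdk without WT library 1 or 2 or K815R library 1 or 3 (0.18 to 0.30), in the fit of only the 6 libraries, and without the libraries labelled K815Q. Lower in K815R were Clk1, a kinase of splicing factors, at 101, 97.9 and 86.8 CPM in WT and 79.5, 70.8 and 63.4 CPM in K815R (-0.42 ± 0.076, adjusted p = 0.00689), the arginine-serine rich Rsrp1 (-0.29 ± 0.059), and Ogt, the O-GlcNAc transferase (-0.25 ± 0.062). The WT libraries of Clk1 overlapped those of LacZ (93.2, 92.9 and 91.1 CPM) and the K815R libraries lay below both. Rsrp1 was lost without WT library 1 or 2 (-0.32 to -0.26) and Ogt without any 1 of the 6 (-0.27 to -0.23).

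One fibroblast gene was uneven among libraries of the same group. Col1a2, an alpha chain of type I collagen, was 12.3, 9.46 and 12.5 CPM in WT, 74.3, 9.14 and 16.9 CPM in K815R, 9.72, 15.7 and 10.4 CPM in LacZ and 126, 81.0 and 9.85 CPM in the libraries labelled K815Q. K815R library 1 and labelled K815Q libraries 1 and 2 stood apart, and K815R against WT was not called (1.51 ± 1.04, adjusted p = 0.611, edgeR). Its partner chain Col1a1 was far more abundant in WT, at 7264, 7659 and 7213 CPM, and even among libraries. Whether the gene model behind the Col1a2 row covers the whole gene was not tested, so these values may not be the level of the full transcript.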
